A study of Mus musculus with 4 samples.

Results

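Capillary endothelial cells line the smallest vessels of the heart. In the hearts without infarction they numbered 4475 of 41766 cell barcodes in the whole series, 2171 in the deletion-labelled library and 2304 in the control library. A barcode entered by marker sums of its unique molecular identifiers (UMIs), each of which stands for 1 captured RNA molecule. It needed at least 500 UMIs, at most 20% of them mitochondrial, at least 2 UMIs of the endothelial genes Pecam1, Cdh5 and Egfl7, none of the leukocyte gene Ptprc and under 3 of the fibroblast genes Dcn and Col1a2. Among these endothelial cells, a capillary cell had at least 3 UMIs of Gpihbp1, Car4, Kdr and Timp4, under 2 of the arterial genes Stmn2, Sema3g and Hey1, under 3 of the venous and endocardial genes Vwf and Npr3, and under 3 of the interferon-induced genes Ifit1, Ifit2, Ifit3, Rsad2 and Ifi44. The cells were thus chosen by the measured UMIs of these genes, whose levels are given as a description.

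The series holds 4 droplet libraries of cells from digested mouse hearts, sorted as live and nucleated and labelled as interstitial cells, with 1 library per group. The deletion-labelled hearts have the genotype Tcf21-MerCreMer:flox and the control hearts Tcf21-MerCreMer, so both carry a tamoxifen-inducible Cre at Tcf21, and all received tamoxifen. The deletion was aimed at cardiac fibroblasts, and hearts were studied uninjured or 3 days after myocardial infarction. The labels state neither how many animals went into a library nor which part of the gene is floxed. MerCreMer had 1 UMI in the deletion-labelled and 0 in the control capillary cells, and 31 and 93 UMIs in the fibroblast-gated cells of the same libraries, which have at least 10 UMIs of Dcn and Col1a2 and none of the endothelial genes. Tcf21, the targeted gene, stood at 165 counts per 1000000 UMIs (CPM) in deletion-labelled and 94.8 CPM in control fibroblasts, so its 3' reads were not lower in the library labelled as deleted. In capillary cells Tcf21 had 23 UMIs in the deletion-labelled and 12 in the control library.

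Cardiac capillaries form a continuous endothelium through which oxygen, glucose and fatty acids reach the muscle cells. Their cells bind lipoprotein lipase at the surface through GPIHBP1, take up the released fatty acids through CD36 and carry them with fatty acid binding proteins. They respond to vascular endothelial growth factor (VEGF) through KDR, form new sprouts led by tip cells after injury, and keep their own circadian clock.

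The libraries held 88509231 UMIs over 11541 barcodes in the deletion-labelled and 55710468 UMIs over 9149 barcodes in the control heart without infarction. Capillary cells had a median of 4360 UMIs and 1964 genes in the deletion-labelled and 3214 UMIs and 1530.5 genes in the control library, and their summed counts were 10117020 and 8020193 UMIs. Gm42418, a feature that overlaps ribosomal RNA sequence, made up 55132 CPM of the deletion-labelled and 124779 CPM of the control sums. Cytoplasmic ribosomal protein genes gave 10.9% of UMIs in the deletion-labelled and 6.82% in the control library. The 2 libraries shared 28 barcodes, 1 of them a capillary cell in both. With 1 library per group there is no spread between animals, so no test was run. The 95% intervals in brackets cover counting error only.

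Capillary markers outside the gate were read in both libraries. Fabp4, which carries fatty acids in the cytoplasm, had at least 1 UMI in 99.7% of deletion-labelled and 99.5% of control capillary cells after every cell was thinned to 2000 UMIs, against 32.8% and 25.6% of fibroblasts. Fabp4 stood at 22527 CPM in deletion-labelled and 18055 CPM in control capillary cells. Cd36, the fatty acid translocase, stood at 4535 and 5908 CPM, and the chemokine gene Cxcl12 at 2526 and 2635 CPM, deletion-labelled library first in both. Rgcc, a cell cycle regulator that is high in capillaries, stood at 988 CPM in deletion-labelled and 999 CPM in control cells. The transcription factor genes Tcf15 and Meox2, which together drive fatty acid uptake genes in heart endothelium, stood at 666 and 193 CPM in deletion-labelled cells and at 634 and 184 CPM in control cells. Thus each of these markers was present in both libraries. Cd36 in capillary cells was 1.04 times its level in arterial cells, the highest other class. Fabp4 was 1.02 times its level in interferon-high endothelial cells, the highest other class for that gene. These 2 genes therefore mark endothelium of the heart and do not set capillary cells apart from those classes.

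Defining genes of other cell types were present in the capillary sums, those of red cells at the highest level. The 4 red cell genes, all haemoglobins, summed to 12248 CPM in deletion-labelled and 822 CPM in control capillary cells, and the 5 lymphatic genes to 45.0 and 94.3 CPM. Over 10 fibroblast genes the summed level was 760 CPM in deletion-labelled and 937 CPM in control capillary cells, with none of the 10 at 0. Mural cells are the pericytes and smooth muscle cells around vessels, and their 10 genes summed to 313 CPM in the deletion-labelled and 296 CPM in the control library. The 12 cardiomyocyte genes summed to 531 and 391 CPM and the 9 leukocyte genes, where Ptprc is at 0 by the rule, to 152 and 249 CPM, deletion-labelled library first. The part of such RNA in the results below was not tested. Genes whose level in capillary cells was under 0.1 of that in another gated class are named as possible free RNA.

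**Figure D1:**
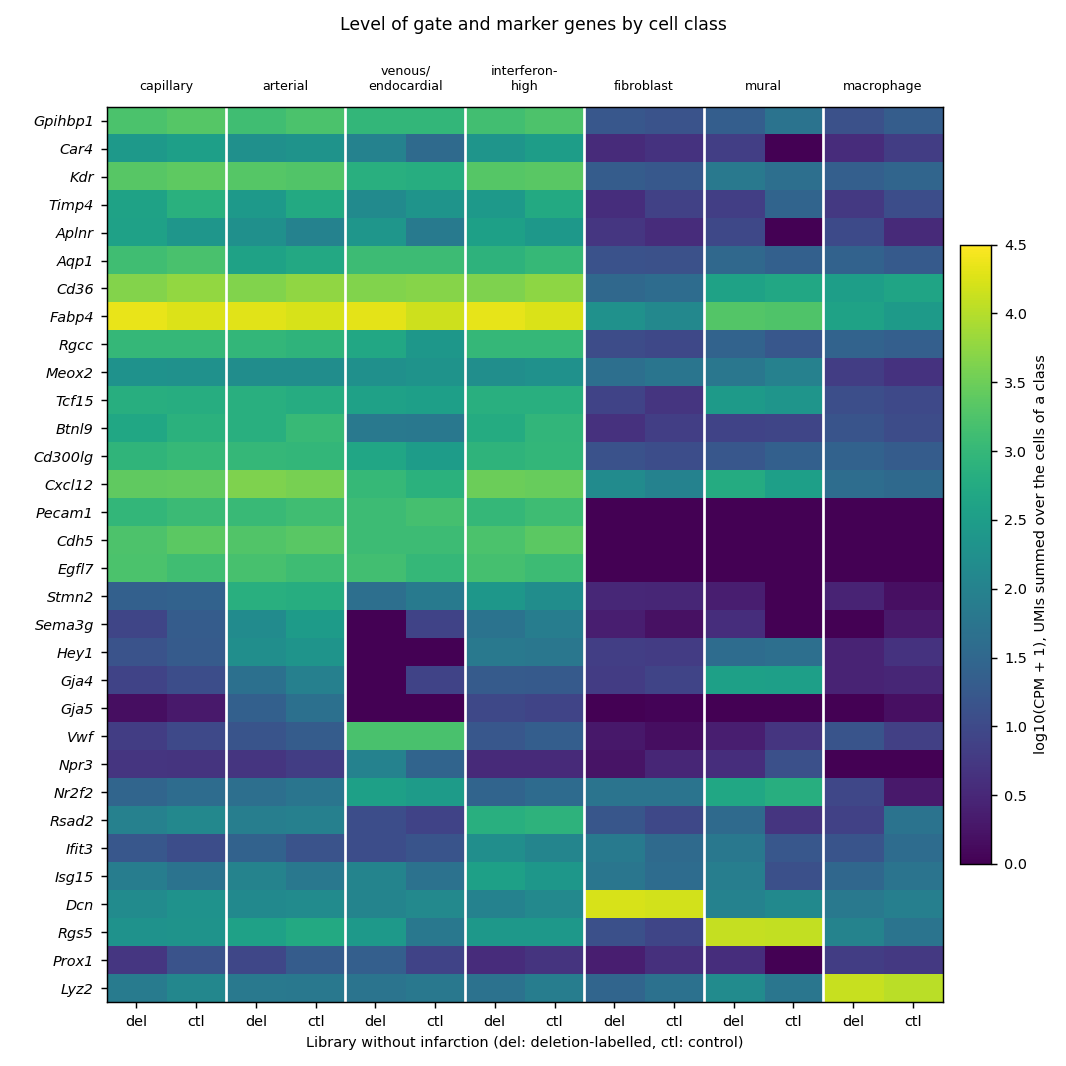
Level of 32 marker genes (rows) in 7 gated classes of uninjured hearts, as log10 of CPM + 1 (colour scale), with the deletion-labelled column left of the control column in each class. Capillary cells held Gpihbp1, Kdr, Cd36 and Fabp4 in both libraries and little of the arterial, fibroblast, mural and macrophage genes. Arterial cells shared most capillary genes.

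Capillary cells made up 34.7% (33.5 to 35.9) of 6263 endothelial barcodes in the deletion-labelled and 49.2% (47.8 to 50.7) of 4680 in the control library. Of all kept barcodes they were 19.4% (18.7 to 20.2) and 25.8% (24.9 to 26.7). The gap sits beside the limit on interferon genes. Cells that failed this limit were 43.9% of endothelial barcodes, 2750 cells, in the deletion-labelled library and 29.8%, 1395 cells, in the control. A sum of 10 or more UMIs of the 5 interferon genes was found in 13.2% of deletion-labelled and 4.9% of control endothelial cells, while 25.6% and 36.5% had a sum of 0. The limit counts UMIs, and the deletion-labelled library was the deeper one. When the gate was applied after thinning to 2000 UMIs, capillary cells were 61.1% of deletion-labelled and 66.8% of control endothelial barcodes. Interferon-high cells were then 20.6% and 15.1%. That setting leaves out cells under 2000 UMIs and reads every gate gene from thinned counts, so its endothelial barcodes are another set, 6329 and 4690. Without the interferon limit, a setting chosen after the data were seen, the capillary shares were 62.2% and 70.6%. Over all 3 settings the capillary share was lower in the deletion-labelled library, and the gap was smaller in the thinned setting and in the one without the limit.

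**Figure D2:**
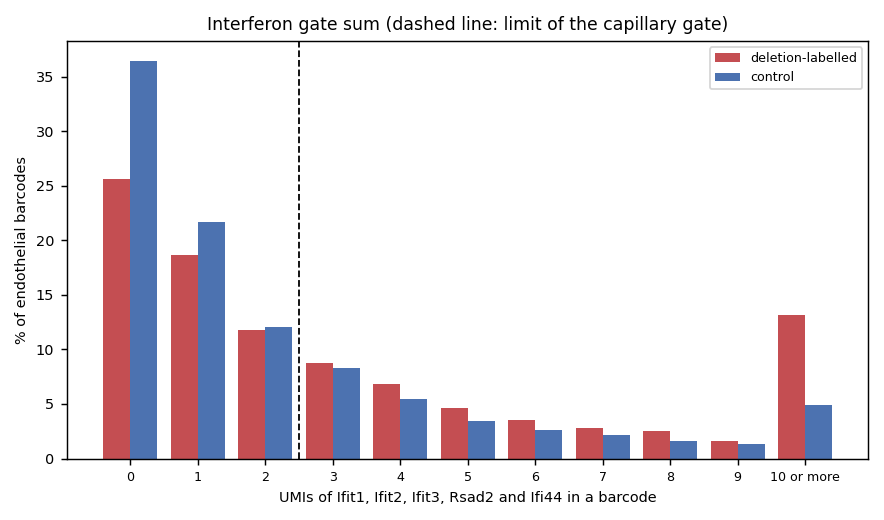
Share of endothelial barcodes (y axis, percent) by the summed UMIs of the 5 interferon genes of the gate (x axis) in the deletion-labelled and control libraries of uninjured hearts. The deletion-labelled library had 25.6% of its endothelial cells at a sum of 0 and the control library 36.5%.

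The cells just inside and just outside each limit had the following values. Those with a capillary sum of exactly 3 numbered 90 in the deletion-labelled and 56 in the control library, with medians of 1563 and 1486 UMIs and Fabp4 at 11477 and 8305 CPM. Those left out with a sum of 2 numbered 118 and 39, with medians of 1512 and 1417 UMIs and Fabp4 at 8979 and 9976 CPM. At the interferon limit, 462 deletion-labelled and 399 control cells with a sum of 2 were inside and had Isg15 at 98.6 and 77.7 CPM. The 358 and 275 cells with a sum of 3 were outside and had Isg15 at 115 and 98.9 CPM. Isg15 encodes a ubiquitin-like protein induced by interferon. At the arterial limit, 441 deletion-labelled and 506 control cells with 1 arterial UMI were inside, with the water channel gene Aqp1 at 932 and 1092 CPM. The 244 and 236 cells with 2 arterial UMIs were outside and had less Aqp1, 623 and 865 CPM. At the venous limit, 11 deletion-labelled and 16 control cells with a sum of 2 were inside, with Aqp1 at 1866 and 1996 CPM and Isg15 at 41.5 and 33.4 CPM. The 6 and 6 cells with a sum of 3 were outside, with Aqp1 at 1857 and 1275 CPM and Isg15 at 175 and 72.9 CPM.

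Set against arterial cells, capillary cells differed in few genes. The arterial gate held 906 deletion-labelled and 780 control cells. Of 11491 genes with at least 20 UMIs over both sums in each library, 275 (2.39%) were at least 1.5-fold higher in capillary cells in both libraries and 351 (3.05%) were at least 1.5-fold lower in both. The fold of 1.5 is a rule of size. Gate genes are left out of these counts, but the cells were split by genes of the same count matrix, so the contrast describes the gate and is not a test.

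The genes that were higher in capillary than in arterial cells included signalling and transport genes. Kit, the receptor of stem cell factor, stood at 54.0 CPM in capillary and 9.43 CPM in arterial cells of the deletion-labelled library and at 60.2 and 8.99 CPM in those of the control, a log2 ratio of 2.52 (2.08 to 2.98) and 2.74 (2.22 to 3.32). Adm encodes adrenomedullin, a peptide that relaxes vessels and tightens endothelium, and its log2 ratio was 2.57 in the deletion-labelled and 2.24 in the control library. Apln, the ligand apelin, and Aplnr, its receptor, had log2 ratios of 2.20 and 1.05 in the deletion-labelled library and of 2.54 and 1.22 in the control. Aqp1 stood at 1344 CPM in capillary and 397 CPM in arterial cells of the deletion-labelled library, and at 1598 and 525 CPM in those of the control. Cxcl9, a T-cell-attracting chemokine induced by interferon-gamma, had log2 ratios of 1.64 and 1.69. Trp53i11, Akap5, a scaffold for protein kinase A, Nrp2, a co-receptor for VEGF and semaphorins, and Pxdn, which crosslinks collagen IV, completed the 8 highest among genes with a mean of at least 30 CPM over both classes in each library, with log2 ratios between 1.07 and 1.65. Apln was under that mean in the control library and was not ranked.

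The genes that were lower in capillary than in arterial cells included matrix and vasoactive genes. Fn1, fibronectin, stood at 26.2 CPM in capillary and 148 CPM in arterial cells of the deletion-labelled library and at 36.5 and 236 CPM in those of the control, a log2 ratio of -2.49 and -2.69. Edn1, the constrictor peptide endothelin, stood at 22.6 and 105 CPM in the deletion-labelled and at 33.5 and 156 CPM in the control library, capillary cells first. Vegfc, a growth factor for lymphatic and venous endothelium, had log2 ratios of -2.28 (-2.52 to -2.04) and -2.65 (-2.95 to -2.35). Col18a1, Alox12, St8sia6, Amd1 and Alpl, the tissue-nonspecific alkaline phosphatase, completed the 8 lowest, between -1.91 and -2.80.

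**Figure D3:**
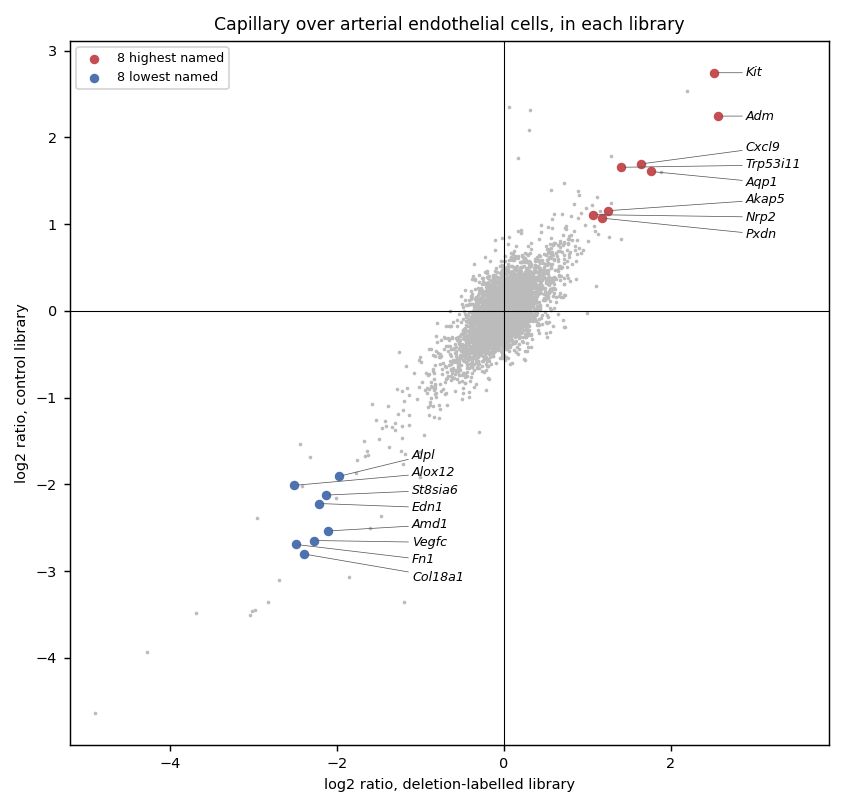
Log2 ratio of CPM, capillary over arterial cells, in the control library (y axis) against the deletion-labelled library (x axis) for genes with a summed CPM of at least 40 in the deletion-labelled library. Each point is 1 gene, gate genes are grey, and the genes named above lie far from 0 along the diagonal in both libraries.

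Gene groups were read against the background of each library, where 5.89% of genes passed 1.5-fold upwards and 5.44% downwards in capillary over in arterial cells of the deletion-labelled library, and 7.09% and 6.45% in those of the control. Of 12 arterial genes outside the gate, 0 were higher and 10 lower in the deletion-labelled and 0 and 11 in the control library, with medians of -1.07 and -1.66. Of 16 tip cell and sprouting genes, 7 were higher and 2 lower in the deletion-labelled library and 6 and 3 in the control. The 15 genes of solute and water transport had 5 higher and 1 lower, and 7 and 2, with medians of 0.29 and 0.45 in the same order. Fatty acid and lipoprotein handling did not separate the classes. Of its 24 genes 0 were higher and 1 lower in the deletion-labelled library, and 1 and 1 in the control, with medians of -0.03 and 0.02. Cd36 and Fabp4 had log2 ratios of 0.01 and 0.15 in the deletion-labelled and 0.09 and 0.11 in the control library. The 42 nuclear genes of the respiratory chain had none past 1.5-fold in either library.

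Capillary cells and the interferon-high endothelial cells that the gate sets aside differed less. Of 11976 genes, 126 (1.05%) were at least 1.5-fold higher in capillary cells in both libraries and 146 (1.22%) lower in both. The lower ones included further interferon-induced genes, which follow from the limit. Isg15 stood at 78.8 CPM in capillary and 364 CPM in interferon-high cells of the deletion-labelled library, and at 51.0 and 239 CPM in those of the control. Cmpk2, Oasl2 and Irf7, the transcription factor of the interferon response, had log2 ratios of -1.49, -1.41 and -1.02 in the deletion-labelled and -1.42, -1.46 and -1.33 in the control library. Fabp4 had log2 ratios of 0.04 and 0.02. Venous and endocardial cells numbered 16 in the deletion-labelled and 29 in the control library, so their levels are coarse. Of 10897 genes, 359 (3.29%) came out higher in capillary cells in both libraries and 3980 (36.5%) lower, but 3499 of the lower ones had under 3 UMIs in the venous and endocardial sum of at least 1 library. Such counts were raised to 3 UMIs, which is 32.4 CPM in the deletion-labelled and 20.7 CPM in the control sum, so the number of lower genes rests largely on the floor and is not read as a difference. Capillary cells had 21.4 and 20.4 CPM of the adhesion molecule gene Vcam1 against 799 and 455 CPM in those cells, and Btnl9, a butyrophilin-like gene, was higher in capillary cells with log2 ratios of 2.91 and 3.57.

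The next comparison set deletion-labelled against control capillary cells. Of 12357 genes with at least 20 UMIs over both sums, 1057 (8.55%) passed 1.5-fold upwards and 862 (6.98%) downwards in the deletion-labelled library, and the median log2 ratio was 0.02. Among arterial cells the shares were 9.09% of 11127 genes higher and 8.21% lower, and among interferon-high cells 8.02% of 12775 higher and 7.59% lower. The shares in these 3 classes lay between 6.98% and 9.09%. Gm42418, a large part of all UMIs, had a log2 ratio of -1.18. When it and AY036118 were left out of the denominator, a setting chosen after the data were seen, 726 genes were higher and 1254 lower, and the median was -0.10. Of the calls, 55.1% were higher as reported and 36.7% under that denominator. Leaving mitochondrial, haemoglobin, cardiomyocyte and ribosomal genes out of the denominator gave 69.5%.

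**Figure D4:**
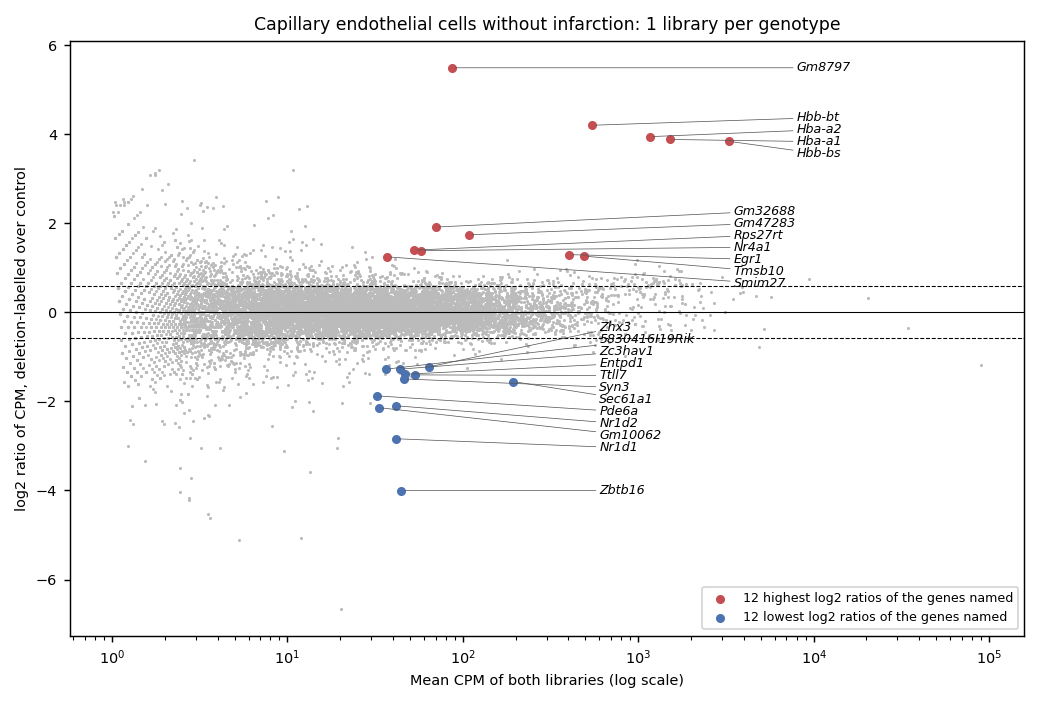
Log2 ratio of CPM, deletion-labelled over control capillary cells (y axis), against the mean CPM of both libraries (x axis, log scale). Each point is 1 gene, and coloured points are the 12 highest and 12 lowest log2 ratios of the genes named, from 5.49 for Gm8797 to -4.00 for Zbtb16.

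The gate and marker genes are a description here. Gpihbp1 stood at 1678 CPM in deletion-labelled and 2031 CPM in control cells, Kdr at 2177 and 2448 CPM, Car4, a carbonic anhydrase at the cell surface, at 260 and 349 CPM, and Timp4, a metalloproteinase inhibitor, at 390 and 719 CPM. Of the endothelial genes of the gate, Pecam1 stood at 947 and 1168 CPM, Cdh5, VE-cadherin, at 1732 and 2286 CPM and Egfl7 at 1654 and 1301 CPM, in the same order. Aplnr, a marker outside the gate, was higher in the deletion-labelled library at 377 CPM, against 228 CPM in the control, a log2 ratio of 0.73 (0.65 to 0.81). After thinning, 46.3% of deletion-labelled and 29.7% of control capillary cells had an Aplnr UMI, against 0.695% and 0.508% of fibroblasts. Its log2 ratio was 0.89 in arterial cells and 0.56 in interferon-high cells, where it did not reach 1.5-fold. Of 10 capillary markers outside the gate, 1 was higher, Aplnr, and 1 lower, Btnl9 at 487 CPM in deletion-labelled and 739 CPM in control cells, a log2 ratio of -0.60. These counts are near the shares of all genes, 8.55% higher and 6.98% lower.

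Circadian clock genes were among the lowest in deletion-labelled capillary cells. The clock is a loop in which BMAL1 (gene Arntl) and CLOCK switch on Period, Cryptochrome, Rev-erb (Nr1d1, Nr1d2) and PAR bZIP genes (Dbp, Tef, Hlf), several of which act back on the loop or its outputs. Of 18 clock genes, 0 were at least 1.5-fold higher and 9 were lower, where 8.55% and 6.98% of all genes were, and the median was -0.51. In arterial cells 0 of 14 were higher and 7 lower, and in interferon-high cells 1 of 18 was higher and 9 lower.

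Output and repressor genes held the 9 lower ones. Dbp (ENSMUSG00000059824, GRCm38 chromosome 7, 45705088 to 45710203, plus strand) had 42 UMIs, 4.15 CPM, in deletion-labelled and 274 UMIs, 34.2 CPM, in control capillary cells, a log2 ratio of -3.04 (-3.55 to -2.57). Nr1d1 (ENSMUSG00000020889, chromosome 11, 98767932 to 98775333, minus strand), which encodes the repressor REV-ERB alpha, stood at 10.2 CPM in deletion-labelled and 72.8 CPM in control cells, a log2 ratio of -2.84 (-3.15 to -2.53). Its paralogue Nr1d2 stood at 15.8 and 67.7 CPM, a log2 ratio of -2.10 (-2.36 to -1.84). In other classes of the same libraries Nr1d1 had log2 ratios of -2.77 in arterial, -2.60 in interferon-high, -2.68 in fibroblast-gated, -2.90 in macrophage-gated and -1.70 in mural-gated cells. Dbp had -3.78 in arterial, -2.58 in interferon-high, -2.79 in fibroblast-gated and -4.19 in mural-gated cells, but 0.05 in macrophage-gated cells. The macrophage values rest on 44 UMIs of Nr1d1 and 47 of Dbp over both libraries, and the mural values on 86 and 31.

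Tef stood at 8.01 CPM in deletion-labelled and 33.0 CPM in control capillary cells, a log2 ratio of -2.05 (-2.42 to -1.68). In fibroblast-gated cells the log2 ratio of Tef was -0.61. Among the Period genes, which repress the loop, Per1 stood at 25.5 CPM in deletion-labelled and 44.5 CPM in control cells, Per2 had 7 and 39 UMIs and Per3 stood at 13.7 and 20.9 CPM. Ciart, a further repressor, had 12 UMIs in deletion-labelled and 20 in control cells, and its interval from -2.24 to 0.03 reached 0. Hlf, at -1.15, is possible free RNA. The activators were within 1.5-fold. Arntl stood at 34.6 CPM in deletion-labelled and 32.9 CPM in control cells, a log2 ratio of 0.07 (-0.16 to 0.31), and Clock at 107 and 119 CPM, a log2 ratio of -0.15. Cry1, Cry2, Npas2, Nfil3, Bhlhe40, Bhlhe41 and Rora were within 1.5-fold as well, from -0.42 for Cry2 to 0.17 for Nfil3. The intervals of Npas2, Nfil3, Bhlhe41, Cry1 and Rora included 0.

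The E-box CACGTG, which CLOCK and BMAL1 bind, was searched in RefSeq promoters of GRCm38.p6, from 250 bases before to 50 after a start. CACGTG reads the same on both strands. It was present in 7.15% of 32851 promoters, and in 1 or more promoters of 8.09% of 27025 genes. Of the lower clock genes 8 had a promoter in the table and 3 of them held it (37.5%), and 2 of the 8 other clock genes did. Promoters of Tef, Per1 and Ciart that hold it are shown because their genes were in the lower set, with the motif in capitals. Another Tef promoter, chr15:81811164-81811463, holds it as well and is not shown. The promoters of Dbp, Nr1d1 and Nr1d2 that were searched did not hold it. A match describes letters and not a site in use.
Tef, chr15:81802423-81802722, plus strand: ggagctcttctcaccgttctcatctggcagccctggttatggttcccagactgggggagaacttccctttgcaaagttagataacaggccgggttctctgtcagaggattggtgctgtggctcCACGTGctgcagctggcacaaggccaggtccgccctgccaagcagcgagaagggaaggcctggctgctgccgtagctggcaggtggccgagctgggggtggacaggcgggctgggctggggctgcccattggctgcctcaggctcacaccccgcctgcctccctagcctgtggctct
Per1, chr11:69098699-69098998, plus strand: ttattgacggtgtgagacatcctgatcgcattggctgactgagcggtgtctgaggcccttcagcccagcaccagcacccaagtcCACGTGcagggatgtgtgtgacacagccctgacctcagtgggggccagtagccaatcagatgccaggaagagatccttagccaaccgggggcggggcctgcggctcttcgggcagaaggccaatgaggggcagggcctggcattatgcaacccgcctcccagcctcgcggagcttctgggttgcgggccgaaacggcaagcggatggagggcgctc
Ciart, chr3:95882179-95882478, minus strand: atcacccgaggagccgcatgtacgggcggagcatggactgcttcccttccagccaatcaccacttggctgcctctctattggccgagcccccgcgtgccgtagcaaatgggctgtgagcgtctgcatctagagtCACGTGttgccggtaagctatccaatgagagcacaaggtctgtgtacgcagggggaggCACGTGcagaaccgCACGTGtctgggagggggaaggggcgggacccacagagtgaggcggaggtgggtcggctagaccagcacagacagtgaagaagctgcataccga

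After infarction the order of the libraries was the reverse for these genes. Capillary-gated cells of the infarction libraries numbered 217 in the deletion-labelled and 103 in the control heart. Their sums held 1212194 and 1042917 UMIs, so the lower CPM values there rest on few UMIs. Dbp stood at 67.6 CPM in the deletion-labelled and 9.59 CPM in the control infarction library, Nr1d1 at 49.5 and 18.2 CPM and Tef at 43.7 and 14.4 CPM. Relative to the uninjured library of the same genotype, Dbp had a log2 ratio of 4.03 (3.47 to 4.60) in deletion-labelled and -1.83 (-2.91 to -0.93) in control cells. Of 14 clock genes 7 were higher and 2 lower after infarction in the deletion-labelled pair, where 18.3% and 22.8% of all genes were. In the control pair 1 was higher and 12 lower, where 24.6% and 34% of all genes were. The order of Dbp, Nr1d1 and Tef between genotypes was thus not the same in uninjured and infarcted hearts, and the difference was not tested. Arntl was lower after infarction in both, with log2 ratios of -2.39 in the deletion-labelled and -2.29 in the control pair.

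Glucocorticoid-responsive genes gave 0 higher and 5 lower of 15, where 8.55% and 6.98% of all genes were, with a median of -0.40. Zbtb16 (ENSMUSG00000066687, chromosome 9, 48654297 to 48836222, minus strand), the zinc finger factor PLZF, was the lowest of all genes eligible to be named. It had 53 UMIs, 5.24 CPM, in deletion-labelled and 674 UMIs, 84.0 CPM, in control capillary cells, a log2 ratio of -4.00 (-4.44 to -3.60). The log2 ratio of Zbtb16 was -4.55 in arterial, -4.69 in interferon-high and -2.20 in fibroblast-gated cells. Fkbp5, a co-chaperone of the glucocorticoid receptor, stood at 11.7 CPM in deletion-labelled and 31.9 CPM in control cells, a log2 ratio of -1.45. Ddit4, an inhibitor of mTOR signalling, stood at 84.2 and 137 CPM. Per1, also a clock gene, and Mt2, which is possible free RNA and whose interval included 0, were the others. Within 1.5-fold, Tsc22d3 had a log2 ratio of 0.06, Cebpd of 0.39 and Klf9 of -0.40. In the infarction libraries Zbtb16 stood at 4.12 CPM in deletion-labelled and 6.71 CPM in control cells, values that rest on few UMIs.

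Immediate-early genes, which also respond to tissue digestion, had 7 higher and 0 lower of 21, beside 8.55% and 6.98% of all genes, with a median of 0.32. Nr4a1, an orphan nuclear receptor, stood at 83.7 CPM in deletion-labelled and 32.0 CPM in control capillary cells, a log2 ratio of 1.39 (1.18 to 1.59). Egr1, a zinc finger factor, stood at 571 and 232 CPM, a log2 ratio of 1.30 (1.22 to 1.37). Both were higher in arterial and interferon-high cells too, where Nr4a1 had 1.36 and 1.34, and Egr1 had 0.88 in the arterial ones. In macrophage-gated cells Egr1 had -0.39. In fibroblast-gated cells the log2 ratio was 0.54 for Nr4a1 and 0.21 for Egr1. Ier2 stood at 513 CPM in deletion-labelled and 260 CPM in control cells, Junb at 831 and 503 CPM, and Fos at 695 and 460 CPM. Zfp36, which promotes decay of cytokine mRNAs, stood at 574 and 329 CPM. Cebpb, at 43.0 and 24.7 CPM, is possible free RNA. Jun, at 1315 and 1161 CPM, had a log2 ratio of 0.18, and Atf3 and Gadd45b had -0.26 and -0.40. Klf2, the factor that laminar flow induces in endothelium, stood at 1711 and 1077 CPM, a log2 ratio of 0.67 (0.63 to 0.71), and was the 1 higher member of 12 shear response genes, of which Ccn2, possible free RNA, was the 1 lower.

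Genes of energy metabolism differed in 1 group. Of 42 nuclear respiratory chain genes, 16 were at least 1.5-fold higher in the deletion-labelled library and 0 lower, beside 8.55% and 6.98% of all genes, with a median of 0.49. Uqcrq of complex III stood at 336 CPM in deletion-labelled and 171 CPM in control cells, Atp5e of the ATP synthase at 516 and 271 CPM, and Ndufa1 of complex I at 166 and 93.5 CPM. Atp5a1 and Sdhb had the lowest log2 ratios of the list, 0.10 and 0.12. With Gm42418 and AY036118 left out of the denominator, 5 of the 42 were higher and the median was 0.37. Over all genes in that setting 5.88% were higher and the median was -0.10. Arterial cells had 12 of 42 higher and interferon-high cells 11. The ribosomal protein share moved the same way, and its part was not tested. The 11 genes of the mitochondrial genome had 0 past the limit and a median of 0.34.

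Most groups that define capillary function had few members past 1.5-fold. Of 25 genes of fatty acid and lipoprotein handling, 2 were higher and 0 lower, near the 8.55% of all genes that were higher. Slc27a1 had 22 UMIs in the deletion-labelled and 8 in the control library, and Vldlr, possible free RNA, had 30 and 14, and both intervals included 0. Fabp5 stood at 1405 CPM in deletion-labelled and 941 CPM in control cells, a log2 ratio of 0.58 just under the limit. Lpl, lipoprotein lipase, stood at 943 and 1350 CPM, a log2 ratio of -0.52 (-0.56 to -0.48), and its inhibitor gene Angptl4 at 27.8 and 41.1 CPM. Pparg, the fatty acid-sensing nuclear receptor, stood at 98.3 and 129 CPM. None of 14 junction genes, 9 of caveolae and transcytosis, 16 of solute and water transport, 13 of basement membrane, 11 of leukocyte adhesion or 22 pan-endothelial genes passed the limit. Within these, Cldn5, the main claudin of tight junctions, stood at 824 CPM in deletion-labelled and 564 CPM in control cells, Sparc, a collagen-binding matrix protein, at 3021 and 2183 CPM and Col4a1, a basement membrane collagen, at 2110 and 2651 CPM.

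Growth factor groups were mixed, and their counts stand beside 8.55% of all genes higher and 6.98% lower. Counts of 1 are near these shares. Of 14 genes of VEGF, angiopoietin and apelin signalling, Aplnr was the 1 higher and Angpt2, which loosens vessel walls, the 1 lower, at 30.5 CPM in deletion-labelled and 46.9 CPM in control cells. Flt1, the VEGF decoy receptor, stood at 1271 and 1837 CPM, a log2 ratio of -0.53. Of 16 tip cell genes 3 were higher and 1 lower. Cxcr4, the receptor of CXCL12, stood at 50.4 CPM in deletion-labelled and 26.8 CPM in control capillary cells, a log2 ratio of 0.91 (0.68 to 1.15), and had 1.43 in arterial and 1.33 in interferon-high cells. After thinning, 8.89% of deletion-labelled and 5.13% of control capillary cells had a Cxcr4 UMI, against 0.278% and 0.305% of fibroblasts. Mest stood at 62.6 and 34.4 CPM, and Kcne3 had 18 and 9 UMIs, with an interval that included 0. Of 14 Notch genes 0 were higher and 2 lower, both possible free RNA. Of 18 genes of BMP and TGF-beta signalling 0 were higher and 1 lower, Smad9, whose interval from -1.56 to 0.17 reached 0. Of 17 angiocrine genes, which encode factors secreted by endothelium, 0 were higher and 4 lower, among them Pdgfd at 71.9 CPM in deletion-labelled and 115 CPM in control cells.

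Immune and stress groups gave the following. Interferon-stimulated genes outside the gate had 4 of 31 higher and 0 lower (median 0.13), beside 8.55% and 6.98% of all genes. The gate holds the interferon sum of every cell under 3, so these values are a description. Irf7 stood at 56.9 CPM in deletion-labelled and 30.7 CPM in control cells, Isg15 at 78.8 and 51.0 CPM and Dhx58, a regulator of viral RNA sensing, at 6.03 and 3.62 CPM. The fourth, Ifi27l2a, is possible free RNA. Of 15 genes of MHC class I presentation 1 was higher, H2-T23 at 209 and 138 CPM, while H2-D1 stood at 1572 and 2309 CPM and B2m had a log2 ratio of 0.29. Of 12 heat shock genes 0 were higher and 2 lower, Hsph1 at 7.91 CPM in deletion-labelled and 23.6 CPM in control cells and Dnaja1 at 411 and 651 CPM.

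**Figure D5:**
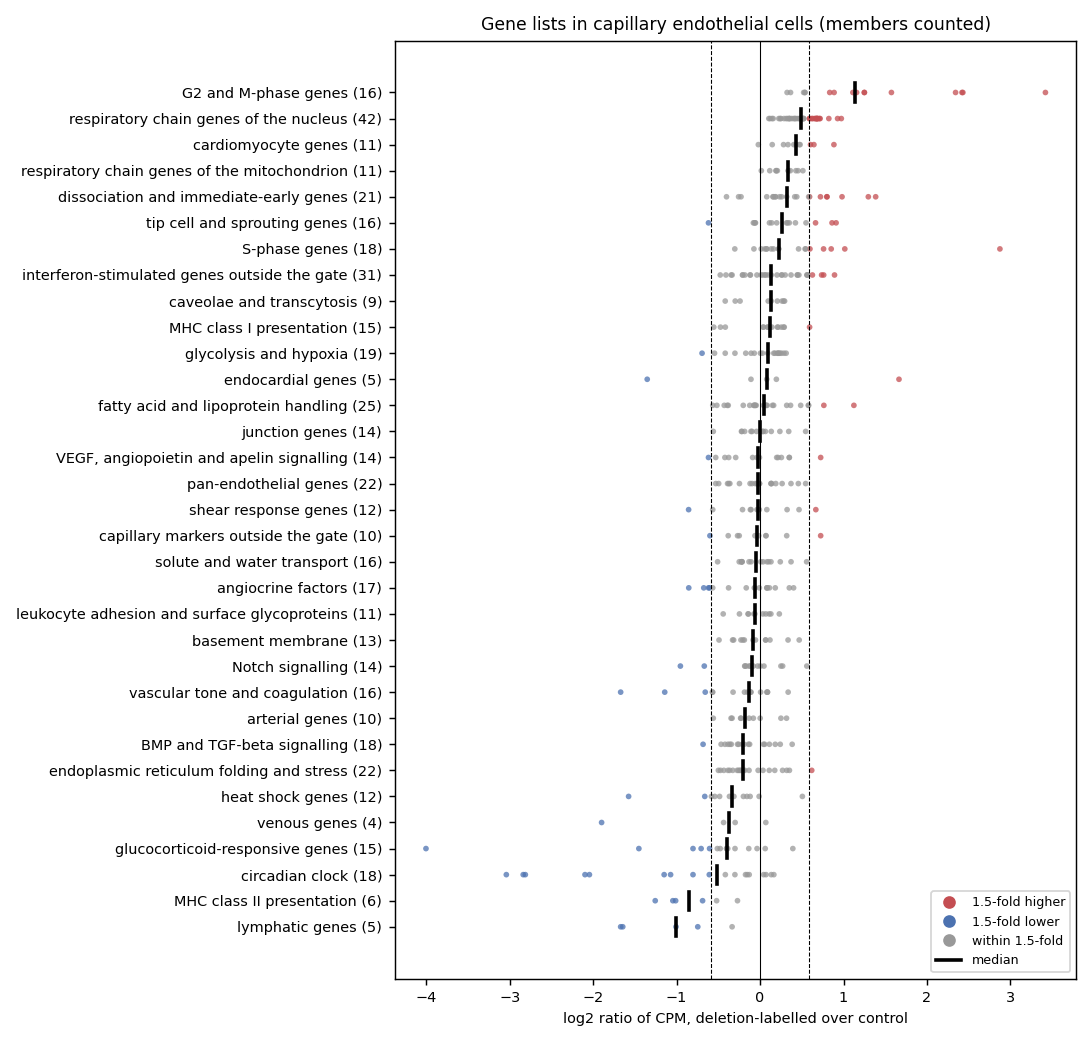
Log2 ratio of CPM, deletion-labelled over control capillary cells (x axis), for each counted member of the gene groups (rows), with the median of each group marked. Nuclear respiratory chain genes lie to the right of 0 with a median of 0.49, and 9 of 18 clock genes lie at least 1.5-fold to the left.

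The genes with the most extreme ratios were a mixed set, in which the haemoglobin genes are products of red cells. Gm8797, an annotated gene on chromosome 3, had 1706 UMIs, 169 CPM, in deletion-labelled and 30 UMIs, 3.74 CPM, in control capillary cells, a log2 ratio of 5.49 (4.98 to 6.07), and between 4.63 and 5.88 in arterial, interferon-high, fibroblast-gated, macrophage-gated and mural-gated cells. The haemoglobin genes Hbb-bs, Hba-a1, Hba-a2 and Hbb-bt had log2 ratios of 3.84, 3.88, 3.95 and 4.20, where Hba-a1 and Hba-a2 are near-identical copies whose reads may be split between them. Gm32688, Gm47283, Rps27rt, Smim27 and Tmsb10, which encodes a thymosin that binds actin monomers, completed the 12 highest, between 1.25 and 1.92. At the other end, Sec61a1, the channel subunit of the translocon, stood at 98.4 CPM in deletion-labelled and 289 CPM in control cells, a log2 ratio of -1.55 (-1.66 to -1.45). Entpd1 (CD39), which breaks down extracellular ATP, stood at 26.0 and 68.1 CPM, a log2 ratio of -1.39, and had -0.99 in interferon-high cells. Gm10062, Pde6a, Syn3, Ttll7, Zc3hav1, 5830416I19Rik and Zhx3 lay between -1.22 and -2.14.

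Some groups rested on a few barcodes. In the deletion-labelled library 26 capillary cells (1.20%) and in the control library 4 (0.174%) held at least 100 haemoglobin UMIs, and these barcodes held 99.1% and 95.3% of all haemoglobin UMIs of the class. The 4 haemoglobin genes together made up 1.22% of UMIs in the deletion-labelled and 0.0822% in the control sum. At least 3 UMIs of mitotic genes were found in 11 deletion-labelled and 7 control cells, which held 88.0% and 80.8% of the mitotic UMIs. The list counts given here stand beside 8.55% of all genes higher and 6.98% lower. G2 and M-phase genes had 11 of 16 higher and 0 lower (median 1.13). Top2a, the DNA topoisomerase of dividing cells, stood at 15.2 CPM in deletion-labelled and 5.11 CPM in control cells. Without the 51 deletion-labelled and 31 control cells that held at least 10 haemoglobin, 3 mitotic or 3 lymphatic UMIs, a setting chosen after the data were seen, 4 of these genes could be counted and 0 were higher. Lymphatic genes had 0 higher and 4 lower of 5, with Prox1 at -1.67. At least 3 lymphatic UMIs were found in 7 deletion-labelled and 18 control cells, which held 96.5% and 96.4% of these UMIs, and without the cells named above Prox1 had a log2 ratio of 0.20. The cells left out were chosen by mitotic and lymphatic genes, Prox1 among them. The loss of these differences follows from that choice and is not a test. Cardiomyocyte genes had 3 higher and 0 lower of 11, with Myl2 at 152 CPM in deletion-labelled and 97.0 CPM in control cells.

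How capillary cells varied among themselves was measured after thinning to 2000 UMIs, as the variance over the mean of UMIs per cell (Fano factor, near 1 for counting alone). It used 1957 deletion-labelled and 2007 control cells, leaving out 214 and 297 shallower ones. The median over 5377 genes was 1.09 and 1.10. The most uneven genes were Hbb-bs, with a Fano factor of 536 in deletion-labelled and 518 in control cells, the other haemoglobin genes and Gm42418, at 92.3 and 73.7. At least 1 Hbb-bs UMI was found in 11.1% of deletion-labelled and 4.09% of control capillary cells, against 4.45% and 1.12% of fibroblasts. Ccl21a, a chemokine gene of lymphatic endothelium, had 74.7 and 58.7 and was found in 0.613% of deletion-labelled and 1.59% of control cells, against 0.417% and 0.102% of fibroblasts. Its feature shares the symbol with more than 1 identifier, so its level is uncertain.

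Among genes that most cells carry, Malat1, a nuclear long non-coding RNA, had a Fano factor of 19.5 in deletion-labelled and 11.3 in control cells and Fabp4 of 10.1 and 9.20. Fabp4 averaged 45.5 UMIs per thinned cell in the deletion-labelled and 36.5 in the control library. Cxcl12 had a Fano factor of 5.59 in deletion-labelled and 5.88 in control cells and was found in 90.4% and 90.7% of cells, against 21.4% and 16.4% of fibroblasts. Aqp1 had 4.20 and 4.40 and was found in 66.3% of deletion-labelled and 69.2% of control cells, against 2.64% and 3.35% of fibroblasts. Without thinning, Aqp1 was found in 73.2% and 72.3%. Jun had 3.80 and 3.68 and was found in fewer capillary cells, 72.9% and 68.9%, than fibroblasts, 84.0% and 81.3%. Across cells that share a library and 1 depth, Cxcl12 and Aqp1 had a Pearson r of -0.17 in deletion-labelled (n = 1957) and -0.20 in control cells (n = 2007), which is weak. Fabp4 and Ccl21a had -0.35 and -0.37, but Ccl21a was found in only 0.613% and 1.59% of these cells. Those values thus rest on a few barcodes and do not describe most capillary cells.

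The same gate on the infarction libraries found few cells. They were 2.09% of kept barcodes and 41.4% of 524 endothelial barcodes in the deletion-labelled infarction library, and 1.03% and 46.2% of 223 in the control one. Their median depth was 4046 UMIs in the deletion-labelled and 7768 in the control library. Gpihbp1 stood at 1569 CPM in deletion-labelled infarction cells and 1678 CPM in deletion-labelled uninjured cells, and at 1274 and 2031 CPM in the control pair. Of 11169 genes, 1510 (13.5%) passed 1.5-fold upwards and 1909 (17.1%) downwards after infarction in both genotypes. Within the deletion-labelled pair 18.3% were higher and 22.8% lower, and within the control pair 24.6% and 34%.

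Sprouting and hypoxia genes were higher after infarction, and so were leukocyte genes. The 9 leukocyte genes summed to 898 CPM in infarcted and 152 CPM in uninjured deletion-labelled capillary-gated cells and to 573 and 249 CPM in the control pair, and 2 and 3 of the 9 were at 0 in the infarcted cells. Their part in the infarction values was not tested. Pgf, placental growth factor, stood at 370 CPM in infarcted and 8.30 CPM in uninjured deletion-labelled cells, and at 636 and 7.23 CPM in control cells. Plvap, which forms the diaphragms of fenestrae and caveolae, stood at 125 and 1.68 CPM in deletion-labelled and at 163 and 2.24 CPM in control cells, infarction first. AA467197 and Slc16a3, a lactate exporter, were the other 2 of the highest 4, with log2 ratios of 6.86 and 5.16 in the deletion-labelled and 8.01 and 6.18 in the control pair. The list counts that follow stand beside 18.3% of all genes higher and 22.8% lower in the deletion-labelled pair, and 24.6% and 34% in the control pair. Of 16 tip cell genes 12 were higher and 0 lower in the deletion-labelled pair and 13 and 0 in the control pair, with medians of 1.53 and 2.19. Of 18 glycolysis and hypoxia genes, 15 and 13 were higher and 0 lower, with Slc2a1, the glucose transporter GLUT1, at log2 ratios of 2.69 and 2.61. All 15 G2 and M-phase genes were higher in both pairs, with medians of 3.40 and 3.69. In uninjured hearts 11 deletion-labelled and 7 control cells held most mitotic UMIs, and the number of such cells after infarction was not counted.

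Capillary markers were lower, and among fatty acid genes more were lower than higher. Over all genes 18.3% were higher and 22.8% lower in the deletion-labelled pair, and 24.6% and 34% in the control pair. All 10 capillary markers outside the gate were at least 1.5-fold lower in the deletion-labelled pair and 9 of 10 in the control pair, with medians of -1.07 and -2.15. Cd36 stood at 1553 CPM in infarcted and 4535 CPM in uninjured deletion-labelled cells, and at 583 and 5908 CPM in control cells. Aqp1 had log2 ratios of -1.43 (-1.55 to -1.32) and -3.33 (-3.56 to -3.11), and Lpl of -0.78 and -3.95, deletion-labelled pair first. Of 22 genes of fatty acid and lipoprotein handling, 3 were higher and 9 lower in the deletion-labelled and 2 and 13 in the control pair, and Angptl4 was among the higher ones with log2 ratios of 2.02 and 2.32. The difference between the 2 pairs was not tested. All 11 cardiomyocyte genes were lower in both pairs, with medians of -2.61 and -3.11, and Ttn stood at 14.0 CPM in infarcted and 109 CPM in uninjured deletion-labelled cells. Ttn was among the 4 lowest genes. The others were Hbb-bs, Hba-a1 and Hba-a2, at log2 ratios of -6.23, -6.50 and -6.56 in the deletion-labelled pair. In the control pair they had -7.23, -6.06 and -5.62, with infarction counts raised to 3 UMIs. In uninjured hearts 26 deletion-labelled and 4 control barcodes held 99.1% and 95.3% of the haemoglobin UMIs.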

How the data were processed

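RNA was measured with a 3' droplet kit in 4 libraries, 1 per group. The deposited values are raw UMI counts of each gene in each barcode that the authors kept, and per the submitters' processing notes they were made with Cell Ranger 5.0.1 on mm10. Barcodes were gated by the marker sums given in the report, counts were summed over the gated cells of each library and expressed as CPM of that sum. CPM have exact Poisson intervals, shares have exact Clopper-Pearson intervals, and log2 ratios have exact Clopper-Pearson intervals conditional on the sum of both counts, all at 95%. These cover counting error only, since each group has 1 library and no spread between animals is known. Counts under 3 UMIs were raised to 3 in ratios. Genes were counted past 1.5-fold among those with at least 20 UMIs over both sums, gate genes left out.

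Genes named in the genotype comparison were the 12 highest and 12 lowest log2 ratios among genes with a mean of at least 30 CPM and at least 30 UMIs that were no possible free RNA, and the 2 highest and 2 lowest of each list. Against other classes the 8 highest and 8 lowest were taken by the ratio nearer 0 of both libraries, of which some are given for interferon-high, venous and endocardial cells, and after infarction the 4 each way. Other list members were named after their values were seen. The members of the class and the gene lists were chosen with earlier results of these data known. Doublets were kept, and Scrublet, which marked 327 of 11175 deletion-labelled and 147 of 8946 control barcodes, was run as an alternative. Deeper libraries give narrower intervals. The log2 ratio and its counts were tested on simulated data. Python 3.11.15, numpy 2.4.6, scipy 1.17.1, pandas 2.3.3 and scanpy 1.11.5 were used.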

Additional observations from a re-analysis of the deposited data

How the results depend on the processing

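No paired analysis was possible because no group has replicates, and no library could be left out. The share of capillary cells among deletion-labelled endothelial barcodes was 36.5% with a gate sum of at least 2, 32.2% with at least 5, 61.1% with the gate applied after thinning and 62.2% without the interferon limit. In the control library it was 47.1%, 66.8% and 70.6% in the last 3 of these settings. It was lower in the deletion-labelled library under every setting run. Genes at least 1.5-fold lower between genotypes numbered 1569 with a minimum of 1 UMI, and with a minimum of 100 UMIs 543 were higher and 353 lower. Against arterial cells, 423 genes were higher with the thinned gate, 2817 lower with at least 1 UMI, and 112 higher and 169 lower with at least 100 UMIs. Against venous and endocardial cells, 141 were higher after thinning the sums, 8756 lower with at least 1 UMI and 847 lower with at least 100 UMIs, counts that rest largely on the floor of 3 UMIs in small sums. Other minimums test other numbers of genes, and the cause of the rest was not tested. The settings without the interferon limit, without the cells rich in haemoglobin, mitotic or lymphatic genes, and without Gm42418 and AY036118 in the denominator were chosen after the data were seen. In the last, the median of all genes was -0.10, against 0.02 as reported, and glucocorticoid-responsive genes had 7 of 15 lower, beside 10.1% of all genes. Prox1 had a log2 ratio of 0.20 without the rare cells, which were chosen in part by their Prox1 UMIs. Among the 2873 pairs of a named gene or list and a setting, it was the only value past 1.5-fold as reported whose sign turned. Turned signs of values within 1.5-fold were not counted. Of the 2873 pairs, 2594 stayed within the counting interval of the reported value. The minimums of 1 and 100 UMIs cannot move the ratio of a single gene. Clock genes had between 6 and 10 lower and at most 1 higher in every setting. Genes with few UMIs and cell shares that depend on depth are the least certain.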
